A study of Schizosaccharomyces pombe with 3 samples.

Results

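The genes described here encode translation initiation, elongation and termination factors and were chosen by name from the probe annotation of the array. They are all fission yeast entries whose symbol starts with tif, tef or eft followed by a number, together with sup35 and sup45. The rule found 21 of the 10928 probe sets. Of these, 19 belonged to 1 gene each, and these 19 genes stand among 2897 fission yeast genes with a symbol of their own. The other 2 probe sets were each assigned to several near-identical elongation factor genes, so their signal cannot be given to any single gene, and they are described separately. Each of the 19 genes had 1 probe set. Of the symbols, 3 differ in the gene table now in use, with tif32 listed as tif301, tif33 as tif303 and sup45 as erf1. That table holds 34 genes that the same pattern would name, and 11 of them, tif1, tif5, tif52, tif222, tif302, tif306, tif307, tif308, tif310, tif313 and tif1102, were not analysed here.

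Translation factors are the soluble proteins that guide the ribosome through the reading of a messenger RNA. Initiation factors bring the initiator tRNA and the capped end of the messenger to the small ribosomal subunit, elongation factors deliver aminoacyl-tRNA and move the ribosome along, and termination factors release the finished protein at a stop codon. The best known control point is eIF2, which carries the initiator tRNA with GTP and must be recharged by the exchange factor eIF2B after each round. Phosphorylation of eIF2 turns it into an inhibitor of eIF2B and lowers protein synthesis under stress.

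The series holds 3 Affymetrix arrays of total RNA from wild type Schizosaccharomyces pombe, a rod-shaped yeast that divides in the middle. All 3 carry the same genotype label, plus mating type (h+) with altered genes for the synthesis of leucine (leu1-32), adenine (ade6-210) and uracil (ura4-DS/E), and were grown as liquid cultures in YEA, a rich medium, at 30 degrees. There is thus 1 group and no condition to compare. Whether the arrays came from separate cultures is not stated, so the SDs and p-values below measure the spread between these arrays, which may be technical. The deposited values are linear MAS5 signals. Their mean, calculated here after trimming 2% of probe sets at each end, was 150.0 on each array. The median fission yeast gene had a signal of 298, 302 and 296 on arrays 1, 2 and 3. In what follows a signal is linear and a log2 signal is its logarithm, and the figure after ± is the SD of the log2 signal over the arrays (n = 3). The brightness of a probe set depends on its probe sequences as well as on the amount of RNA, so the place of a gene in the order of all genes describes these probe sets and does not rank transcript numbers.

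The translation factor genes were bright. Their median log2 signal was 9.89, against 8.22 over all 2897 genes, and the members ran from 8.37 for tif224 to 10.35 for tef3. In the top 25% of mean signal, which by definition holds 25% of all genes and starts at a log2 signal of 9.10, there were 17 of the 19 members. In the top 10%, which holds 10% of all genes and starts at 9.78, there were 12, and no member was in the bottom 25%. All 19 were above the background limit, the 95th percentile of the probe sets of another yeast on the same array, with limma adjusted p-values from 1.18e-13 to 2.20e-13. This says little about the members, since 99.9% of all genes were called above the limit in the same fit.

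**Figure D1:**
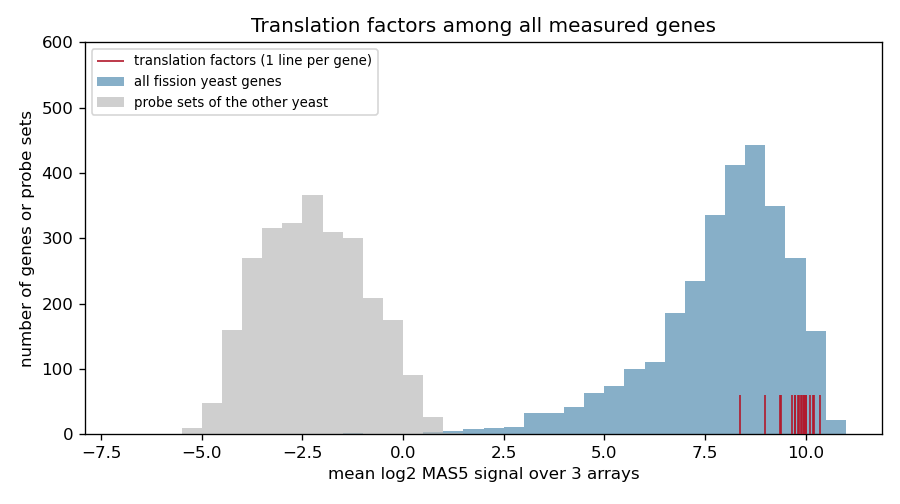
Histogram of mean log2 signal over 3 arrays for all 2897 fission yeast genes (blue) and for 2601 probe sets of the other yeast (grey), in bins of 0.5, with 1 red line for each of the 19 translation factor genes. The lines lie between 8.37 and 10.35, most of them at the upper end of the fission yeast genes and tif224 near the middle.

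**Figure D2:**
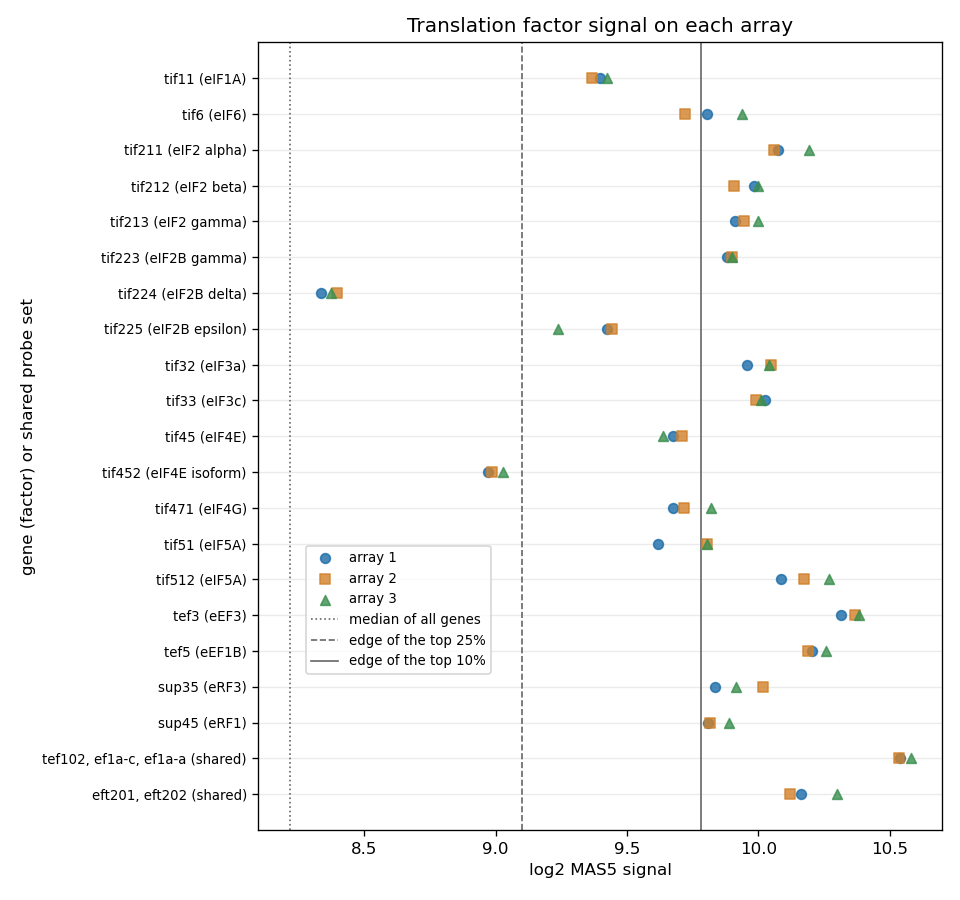
Log2 signal of each translation factor gene on arrays 1 (circle), 2 (square) and 3 (triangle), ordered by role, with the 2 shared probe sets at the bottom. Vertical lines mark the median of all genes and the edges of the top 25% and the top 10%. Only tif224 and tif452 lie left of the edge of the top 25%, and the 3 symbols of a gene lie close together.

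Among the initiation factors, the 3 subunits of eIF2 lay close to one another. The gene tif211, which encodes the alpha subunit that the stress kinases phosphorylate, had signals of 1077, 1066 and 1171 on arrays 1, 2 and 3. For tif212, the beta subunit, they were 1011, 961 and 1023. The gamma subunit gene tif213, whose product binds GTP and the initiator tRNA, gave 964, 987 and 1022. All 3 genes were highest on array 3, and their mean log2 signals of 10.11 ± 0.07, 9.96 ± 0.05 and 9.95 ± 0.04 put them between the 93.1 and the 95.3 percentile of all genes.

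The 3 measured subunits of eIF2B covered a wider range. The gamma subunit gene tif223 had signals of 942, 955 and 955, which is 9.89 ± 0.01 on the log2 scale and the smallest SD of any member. The delta subunit gene tif224 had 323, 337 and 331, or 8.37 ± 0.03. For tif225, which encodes the catalytic epsilon subunit, the signals were 686, 696 and 603, or 9.37 ± 0.11. The 3 genes thus lay at the 92.4, 53.4 and 82.0 percentile of all genes, and tif224 was the only member near the middle of the order. The tif225 probe set also behaved unlike most members between arrays, being lowest on array 3.

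Both eIF3 genes, which encode large core subunits of the factor that holds the initiation complex together, lay in the top 10%. The gene tif32, for subunit a, had 994, 1059 and 1052 (10.01 ± 0.05), and tif33, for subunit c, had 1041, 1017 and 1030 (10.01 ± 0.02). Both kept within 0.1 on the log2 scale over the arrays. Other eIF3 subunit genes with names outside the rule lay nearby. They were int6 for subunit e at 10.08 ± 0.04, moe1 for subunit d at 10.04 ± 0.04 and sum1 for subunit i at 10.19 ± 0.05.

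Genes of the cap-binding complex were bright but below the top 10%. The gene tif45, for the main cap-binding protein eIF4E, had signals of 816, 836 and 797 (9.67 ± 0.03). The scaffold gene tif471, for eIF4G, had 818, 840 and 904 (9.74 ± 0.07). The gene tif452 encodes another eIF4E isoform, and its signals were 501, 507 and 521 (8.99 ± 0.03). It was the only member besides tif224 outside the top 25%, and it lay at the 72.3 percentile. Both tif471 and tif452 were lowest on array 1 and highest on array 3, while tif45 was lowest on array 3.

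The remaining initiation factors act on start site choice and on the large subunit. The gene tif11, for eIF1A, which opens the small subunit for scanning, had signals of 674, 660 and 687 (9.40 ± 0.03). The gene tif6 encodes eIF6, which keeps free large subunits from joining too early and is also needed to make them, and it had 894, 844 and 981 (9.82 ± 0.11). The tif6 signal on array 3 was 1.16-fold that on array 2, the widest span of any member.

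The array carries 2 genes for eIF5A, a small protein that bears the modified amino acid hypusine and helps ribosomes past difficult stretches and in termination. The gene tif512 had signals of 1088, 1155 and 1234 (10.18 ± 0.09), and tif51 had 786, 894 and 894 (9.74 ± 0.11). Both were lowest on array 1, by 0.13 and 0.19 on the log2 scale against the mean of the other arrays.

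Both elongation factor genes with a probe set of their own were in the top 10%. The gene tef3 encodes eEF3, an ATPase of fungi that helps release deacylated tRNA from the ribosome, and it had signals of 1272, 1322 and 1334 (10.35 ± 0.04). The gene tef5, for the nucleotide exchange subunit of eEF1, had 1179, 1166 and 1224 (10.22 ± 0.04). They lay at the 98.2 and 96.8 percentile of all genes, and both were highest on array 3.

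The factors that carry aminoacyl-tRNA and drive translocation were measured mainly through shared probe sets. The probe set shared by tef102, ef1a-c and ef1a-a, whose current names are tef102, tef103 and tef101 and which encode eEF1A, had signals of 1489, 1484 and 1531 (10.55 ± 0.03), above 99.5% of all genes. The probe set shared by eft201 and eft202, the genes of the translocase eEF2, had 1146, 1114 and 1259 (10.19 ± 0.09), above 96.5% of all genes. A further probe set was assigned to ef1a-a alone, a symbol that the naming rule does not take, and it had 1158, 1242 and 1244 (10.25 ± 0.06). All 3 probe sets were highest on array 3, and the shared ones can collect RNA of several genes.

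Both termination factor genes were in the top 10%. The gene sup45 encodes eRF1, which reads the stop codon and triggers release, and it had signals of 897, 902 and 947 (9.84 ± 0.04). The gene sup35 encodes eRF3, the GTPase partner of eRF1, and it had 913, 1037 and 965 (9.92 ± 0.09). On array 2 sup35 was 0.14 above the mean of the other arrays, the largest such value of array 2 among the members, while sup45 was 0.03 below it.

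The members were measured with little spread. The largest difference between any pair of arrays was 0.22 on the log2 scale, and the median SD of the members was 0.0435, against 0.0605 over all genes and 0.0431 over the 725 genes of the top 25%. For 12 of the 19 members the SD was under 0.05. The same held for 1150 of all 2897 genes and for 435 of the 725 genes in the top 25%. For 3 members, tif225, tif6 and tif51, it was over 0.1, which is 15.8% of the members, where 24.9% of all genes and 3.59% of the genes in the top 25% had an SD over 0.1. Across the 19 genes log2 signal gave Pearson's r of 0.988 for arrays 1 and 2, of 0.986 for arrays 1 and 3, and of 0.982 for arrays 2 and 3. These values describe genes that differ in probe brightness, which all arrays share, and genes are not independent replicates.

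**Figure D3:**
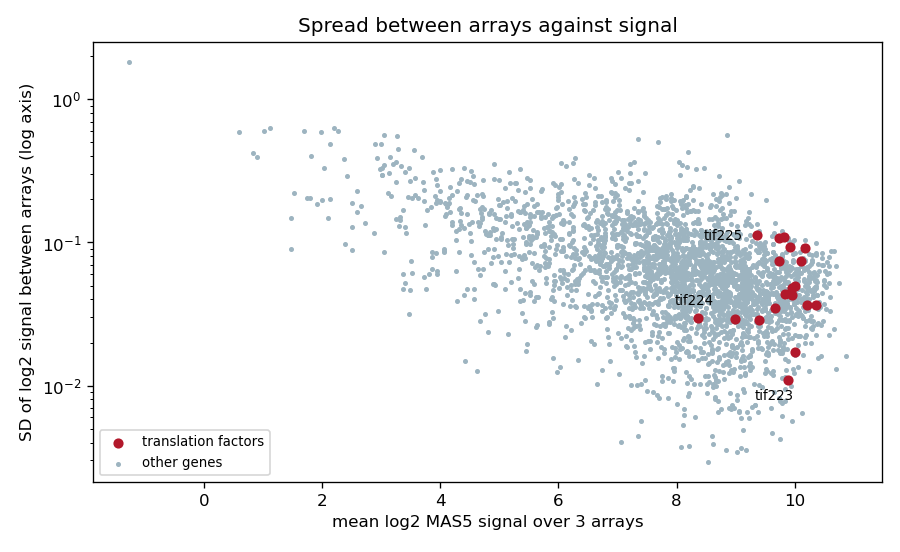
SD of log2 signal between the 3 arrays (log axis) against mean log2 signal for every fission yeast gene (grey) and for the 19 translation factor genes (red), with the extremes tif223, tif224 and tif225 named. SDs of the members run from 0.0110 for tif223 to 0.113 for tif225, within the cloud of genes of like signal.

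Small differences between arrays ran the same way for most members. On array 3, 16 of the 19 genes were higher than the mean of the other arrays, against 53.8% of all genes, and the median difference was 0.05, against 0.01 over all genes. The exceptions were tif225 at -0.20, tif45 at -0.05 and sup35 at -0.01. On array 1, 14 of the 19 were lower than the mean of the other arrays, against 51.1% of all genes, with a median of -0.04, against -0.0023 over all genes. The median on array 2 was -0.01.

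Other bright genes were also higher on array 3. Among the genes of the top 25%, 73.8% were higher on array 3, with a median difference of 0.04, and 61.4% had their highest value there. Of the members, 12 had their highest value on array 3, against 39.4% of all genes. Cytosolic ribosomal protein genes showed the same side, with 99 of 119 higher on array 3 and a median of 0.06. Most other bright genes were also lower on array 1, but at least as many were lower on array 2. Of the top 25%, 34.5% were higher on array 1 and 33.4% on array 2. Of the cytosolic ribosomal protein genes, 23.5% were higher on array 1 and 17.6% on array 2. This compares with 26.3% and 42.1% of the members and 48.9% and 47.0% of all genes. The lowest value was on array 1 for 57.9% of the members, 35.2% of the top 25% and 29.7% of all genes. After quantile normalization, which makes the distribution of signal equal on all arrays, 11 of the 19 members were higher on array 3, against 56.7% of all genes, and the median of the members was 0.02. On array 1 the same normalization left 13 of the 19 members lower, against 52.3% of all genes, with a median of -0.03, while the median of the top 25% was -0.00173, against -0.02 as deposited. The part of signal scaling in the members' differences was not tested, and no contrast between arrays of 1 group was made.

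**Figure D4:**
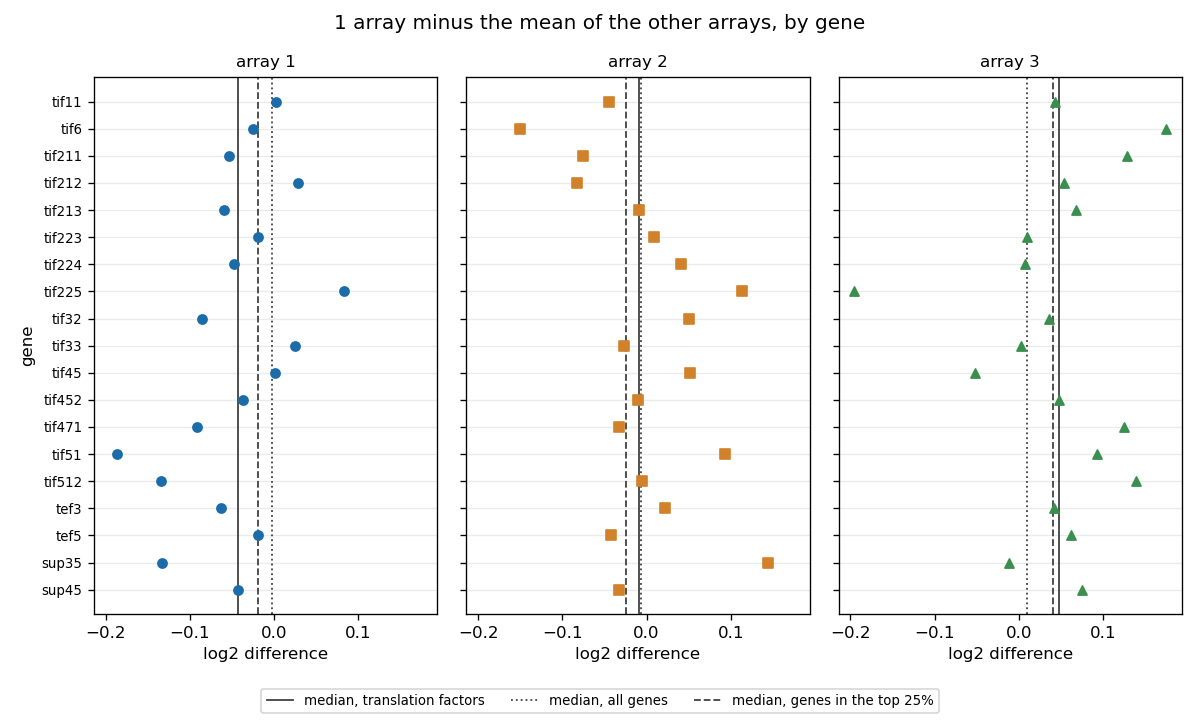
Log2 signal on 1 array minus the mean of the other arrays, for each translation factor gene, with a panel for each array. Vertical lines are the medians of the members (solid), of the top 25% of genes (dashed) and of all genes (dotted). On array 3 most members lie right of 0, and tif225, at -0.20, lies farthest left.

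The probe sets of the other yeast included 7 whose symbols, in capitals in the annotation, fit the same naming rule. TIF11, SUP45, SUP35 and TIF6 have the name of a member, while TIF34, TIF5 and EFT2 do not. Whether the probes of the 7 cover conserved sequences was not examined. Signals of SUP45 were 0.128, 0.0863 and 0.0402 on arrays 1, 2 and 3. For SUP35 the signals were 0.0542, 0.110 and 0.0996, and for TIF11 they were 0.144, 0.0388 and 0.0224. Among the fission yeast probe sets of these 3 names the lowest value was 660, that of tif11 on array 2, while the highest of the 3 in capitals was 0.144. For the other shared name the lowest value of tif6 was 844, on array 2, and the highest of TIF6 was 0.929, on array 1.

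The highest of the 7 were TIF5, with signals of 0.646, 0.698 and 1.15, and EFT2, with 0.269, 0.972 and 1.50. Only EFT2 passed the limit on any array, which was a signal of 1.20, 1.24 and 1.18, and it did so only on array 3. Thus 0 of the 7 were above the limit on all 3 arrays, where 0.769% of the 2601 probe sets of the other yeast were. The limit is the 95th percentile of these same probe sets, so most lie below it by definition. Nothing is read from this count. TIF6 and TIF34 lay between, with 0.929, 0.330 and 0.735 for TIF6 and 0.541, 0.167 and 0.0470 for TIF34. No table stated the organism of these probe sets. Their symbols are in the style of budding yeast, and why EFT2 passed the limit on array 3 was not tested.

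Other genes of the pathway are given by list. Initiation factors under other names had 10 matches in the annotation, of which ctp1, a DNA repair gene that carries one of the names as a synonym, and pab1, which in fission yeast names a phosphatase subunit, are no initiation factors. Of the remaining 8, 7 were in the top 25%, with a median log2 signal of 10.03. They included sui1, for eIF1, at 10.28 ± 0.03, pabp, the poly(A)-binding protein, at 10.03 ± 0.05, sce3, for the helper protein eIF4B, at 9.87 ± 0.04, and sum3, a DEAD-box helicase also called ded1, at 9.65 ± 0.07. The exception was ste13, a helicase of messenger decay and repression, at 8.30 ± 0.04, and the wrongly matched pab1 and ctp1 gave 7.25 ± 0.04 and 8.29 ± 0.04.

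Of the genes for kinases that phosphorylate eIF2, 3 were measured, and 0 of them were in the top 25%, which holds 25% of all genes, so that with 3 genes nothing is read from this count. Signals of gcn2, which senses uncharged tRNA, were 365, 374 and 397 (8.56 ± 0.06). For the haem-regulated type kinases the signals were 307, 330 and 345 for hri2 (8.35 ± 0.08) and 37.7, 34.6 and 32.6 for hri1 (5.13 ± 0.10). Of the 3, hri1 was in the bottom 25%, although limma called all 3 above background, as it did 99.9% of all genes.

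Genes of ribosome recycling and quality control had 1 of 5 measured members in the top 25% and a median of 8.69. The member was rli1, for the recycling ATPase that splits ribosomes after termination, at 9.38 ± 0.01, with nmd3, an export adaptor of the large subunit, next at 8.86 ± 0.12. The lowest were upf3 at 7.99 ± 0.04 and upf2 at 8.20 ± 0.06, of nonsense-mediated decay. The list of nascent chain factors and other ribosome-associated proteins had 9 of 10 in the top 25%, with a median of 9.77. The highest were cpc2, the RACK1 homologue on the small subunit, at 10.67 ± 0.09 and sks2, a ribosome-bound Hsp70, at 10.59 ± 0.05. The lowest were fma2, a methionine aminopeptidase, at 9.04 ± 0.05 and naa15, of the N-terminal acetyltransferase, at 9.16 ± 0.01.

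Genes that modify elongation factors and eIF5A had 5 of 7 in the top 25%, with a median of 9.26. Those highest were dph5 at 9.60 ± 0.03 and mug71, now called dph6, at 9.49 ± 0.04, both of the pathway that makes diphthamide on eEF2. Those lowest were rrg1, now called efm2, at 8.80 ± 0.03 and dph2 at 9.07 ± 0.04. The gene mmd1, for the hydroxylase that completes hypusine on eIF5A, gave 9.26 ± 0.06.

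Genes of mitochondrial translation had 1 of 5 matches in the top 25%, close to the 25% of all genes that it holds. The organelle elongation factor gene tuf1 had signals of 779, 766 and 856 (9.64 ± 0.09) and was the only member of its list in the top 25%. Its exchange factor gene tsf1 had 387, 422 and 273 (8.47 ± 0.33), lowest on array 3. The recycling factor gene rrf1 gave 8.57 ± 0.06, and mtf1, whose part in translation was not checked, gave 6.08 ± 0.14. A match to rrg1 came through a synonym and is no organelle factor, and without it 1 of 4 genes was in the top 25% and the median was 8.52.

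By list median, the translation factors lay between the 2 kinds of ribosomal protein genes. Cytosolic ribosomal protein genes were all in the top 25%, 119 of 119, and 108 were also in the top 10%, with a median of 10.24 and a range from rpl1603 at 9.15 ± 0.02 and rps1401 at 9.21 ± 0.02 to rpp202 at 10.76 ± 0.05 and rps001 at 10.87 ± 0.02. Of the mitochondrial ones, 10 of 39 (25.6%) reached the top 25%, close to the 25% of all genes that it holds, and 0 the top 10%. Their median was 8.74, against 8.22 over all genes. They ran from mrp17 at 4.85 ± 0.17 and mrp51 at 5.73 ± 0.23 to mrpl6 at 9.38 ± 0.02 and mrpl22 at 9.45 ± 0.02. These are counts and medians of probe set signal on 3 arrays of 1 group, and no test between lists was made.

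**Figure D5:**
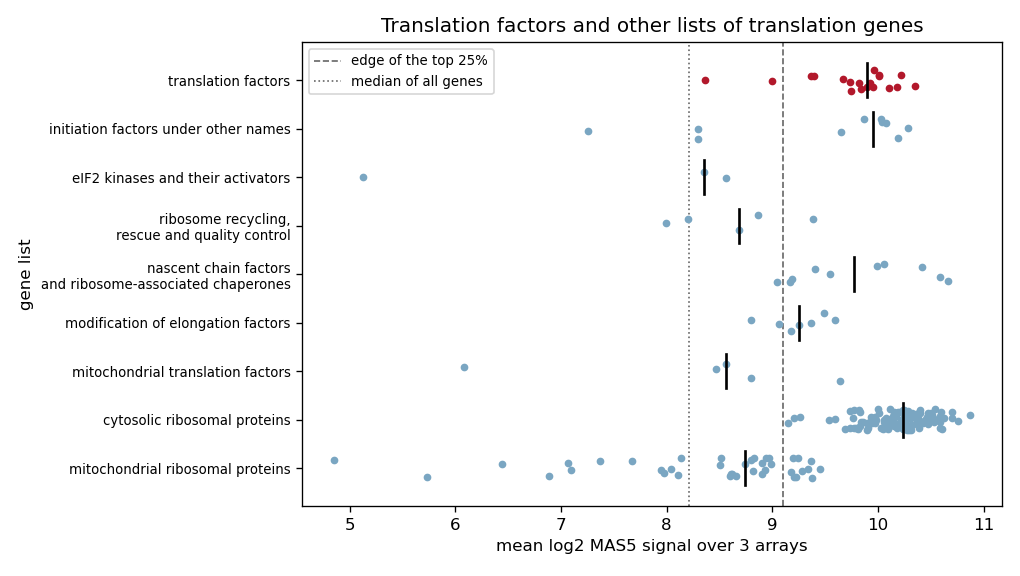
Mean log2 signal over 3 arrays of each gene (points, spread vertically at random for visibility) in the translation factors (red, top row) and in the other lists (blue, with the wrongly matched genes still drawn and counted in the median), with the list median as a black bar. The dashed line is the edge of the top 25% and the dotted line the median of all genes. The translation factor median, 9.89, lies between those of the cytosolic and mitochondrial ribosomal protein genes, 10.24 and 8.74.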

How the data were processed

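Total RNA of 3 wild type samples, 1 group, was measured on 1 array each. The authors deposited linear intensity values, 1 per probe set, made with MAS5 per the submitters' processing notes. The scaling target and any filter are not given in the sources used here. Trimmed means were equal on all arrays, so values were turned into log2 with no further normalization. Symbols came from the platform annotation and current names from a RefSeq gene table of assembly ASM294v3, used for names only. Probe sets whose symbol is all capitals and whose identifier is outside that table, 2601 in all, were taken as those of another yeast, and their 95th percentile on each array was the background limit. Log2 signal minus the limit was tested against 0 across 2897 genes with limma 3.58.1 in R 4.3.3 (lmFit, eBayes, two-sided, Benjamini-Hochberg adjustment, threshold 0.05). The fit was also run on simulated independent values, which does not check the limit or whether the arrays came from separate cultures. Other quantities are descriptive. The number of arrays limits the precision.

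Members and lists were chosen with earlier results of these data known. Every member is named, as are the 2 highest and 2 lowest genes of each other list, and further genes named were chosen after their values were seen. List names were matched to current symbols, then to unique synonyms. A pattern meant for aminoacyl-tRNA synthetases also took other genes and was not used. Planned descriptions of promoter and protein sequences were not made here.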

Additional observations from a re-analysis of the deposited data

How the results depend on the processing

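The results were recomputed with 16 added before log2, with medians centred, with quantile normalization, without each array, with the limit at percentile 90 or 99, with a gene's highest probe set, with shared probe sets or dim genes left out, with genes of the current table only, for the top 10%, and, chosen after seeing the data, with the 2 shared probe sets or ef1a-a counted as members. Each result kept its value within 1.5 times or within 1 SD between arrays (0.0428) under all those that were run for it. That SD is about as large as the median shifts of arrays 1 and 3 as deposited, -0.0428 and 0.0478. A shift could thus nearly vanish and still count as kept, so this criterion does not show that the shifts are stable. The count of members higher on array 3 also counted as kept, although it fell from 16 to 11 with quantile normalization. The count in the top 25% was 17 in each one that kept the 19 members and that share. The median shift of array 3 ran from 0.02 to 0.07 and that of array 1 from -0.07 to -0.02, while that of array 2 changed sign with quantile normalization (0.02) and without array 3 (0.02). The genes called above the limit numbered from 2891 to 2897. No paired analysis was possible because there is 1 group. With 3 arrays of 1 group, no outlier test was made, and probe brightness limits comparison between genes.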
